A study of Mus musculus with 6 samples.

Results

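Phosphate transport is described here through 7 mouse genes and the open chromatin called over them in the kidney. The genes were Slc34a1, Slc34a2, Slc34a3, Slc20a1, Slc20a2, Xpr1 and Pdzk1, and the rule that defines them is their role and uses no value of these data. An interval of the deposited peak list was taken for a gene when it overlapped the stretch from 3 kb upstream of the gene to its end on the annotated strand. This gave 97 of the 279569 distinct intervals of the list (0.0347%), with 370 of its 749750 summits inside the 7 regions.

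Accessibility was measured by ATAC-seq, in which the Tn5 transposase cuts DNA that is free of nucleosomes and the density of cuts is counted. The labels gave 3 WT libraries and 3 libraries with a tubule-specific Acly knockout (Acly cKO), all from kidney, with the treatment given as Control for each. By the study's methods the tissue was kidney cortex, the Acly cKO mice carried Acly fl/fl alleles and Ksp-Cre, a Cdh16-driven Cre active in proximal tubules, distal tubules and collecting ducts, and the controls were Acly fl/fl littermates without Cre. The labels give no age, and the methods give one for the mice of the injury models but do not state it for the ATAC-seq animals. WT libraries belonged to batches 1 and 2 and Acly cKO libraries to batches 4 and 5, so that genotype and batch cannot be told apart. The deposited peak list is a single call whose peak names describe it as covering all ATAC libraries, and no file names the libraries of that pool. The study's methods also describe WT libraries that had been deposited earlier and are not analysed here, and whether they entered the pool is not known. No column belongs to a single library, and therefore the 2 genotypes were not compared, no value below has a replicate error, the depth is unknown and no test was made. A fold enrichment is the pileup of cuts at a summit over the background that the peak caller estimated, and its q is the caller's own. In bulk tissue, a site open in few cells and a site weakly open in many cannot be told apart.

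Phosphate that has been filtered at the glomerulus is recovered mainly in the proximal tubule. There the sodium-phosphate cotransporters NaPi-IIa (Slc34a1) and NaPi-IIc (Slc34a3) sit in the brush border, where PDZ scaffold proteins such as Pdzk1 bind the cotransporters, and parathyroid hormone and FGF23 reduce their number at the membrane. NaPi-IIb (Slc34a2) is the related cotransporter best known from small intestine and lung. PiT-1 (Slc20a1) and PiT-2 (Slc20a2) are sodium-phosphate cotransporters found in most cell types, and Xpr1 is the exporter through which cells release phosphate.

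The sequences under a few summits are shown first, because the genes differed in the composition of their starts and in where their strongest summit lay. Each is given 5′ to 3′ on the strand of its gene, from the GRCm39 assembly, in lower case, with matches to the searched motifs in capitals. The promoters of Slc34a1 (chr13:55547336-55547535, plus strand) and Xpr1 (chr1:155293152-155293351, minus strand) stand for the starts with few and with many CpG dinucleotides, and run from 170 bp before the canonical transcription start site (TSS) across the first 30 transcribed bases. Capitals mark a TATAAA box in Slc34a1 and copies of GGGCGG, the GC box bound by SP and KLF factors, on either strand and in part overlapping, in Xpr1.
Slc34a1 promoter: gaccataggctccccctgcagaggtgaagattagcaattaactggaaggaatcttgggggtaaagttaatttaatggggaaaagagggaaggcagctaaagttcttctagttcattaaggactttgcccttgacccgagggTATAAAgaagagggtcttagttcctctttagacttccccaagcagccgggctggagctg
Xpr1 promoter: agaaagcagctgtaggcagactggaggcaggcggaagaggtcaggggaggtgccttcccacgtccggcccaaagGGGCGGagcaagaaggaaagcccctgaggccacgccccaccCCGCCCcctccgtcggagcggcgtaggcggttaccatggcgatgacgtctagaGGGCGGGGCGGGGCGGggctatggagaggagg

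The next 5 windows, of 150 bp each, are centred on the strongest summit of a gene that lay farther than 1 kb from the canonical TSS and outside its exons. They are from Slc34a1 intron 5 (chr13:55549150-55549299, plus strand), from before the canonical TSS of Slc34a2, within the span of its longer annotated transcript (chr5:53205399-53205548, plus strand), from Slc20a1 intron 6 (chr2:129048833-129048982, plus strand), from Slc20a2 intron 1 (chr8:22971205-22971354, plus strand) and from Pdzk1 intron 1 (chr3:96746707-96746856, plus strand). Capitals mark TGANTCA, the AP-1 motif, in Slc34a1 and Slc20a2, the E-box CACGTG in Slc34a2 and the GC box on the opposite strand in Slc20a1. The Pdzk1 window held no match. The same windows of Slc34a3, at 4.19-fold with a match to CCAAT, and of Xpr1, at 18.1-fold with no match, are not shown.
Slc34a1 intron 5: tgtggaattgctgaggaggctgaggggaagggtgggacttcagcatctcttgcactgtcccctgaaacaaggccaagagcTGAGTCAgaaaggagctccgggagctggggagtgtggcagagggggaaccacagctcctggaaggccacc
Slc34a2 before the canonical TSS: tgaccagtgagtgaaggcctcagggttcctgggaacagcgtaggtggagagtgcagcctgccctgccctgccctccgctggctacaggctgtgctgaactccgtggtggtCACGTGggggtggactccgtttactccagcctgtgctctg
Slc20a1 intron 6: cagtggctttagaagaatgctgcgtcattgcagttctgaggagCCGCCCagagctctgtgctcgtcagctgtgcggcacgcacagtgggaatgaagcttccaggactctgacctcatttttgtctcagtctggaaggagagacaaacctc
Slc20a2 intron 1: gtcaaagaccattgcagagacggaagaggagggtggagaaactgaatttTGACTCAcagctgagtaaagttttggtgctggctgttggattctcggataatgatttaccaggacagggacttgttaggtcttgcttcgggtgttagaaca
Pdzk1 intron 1: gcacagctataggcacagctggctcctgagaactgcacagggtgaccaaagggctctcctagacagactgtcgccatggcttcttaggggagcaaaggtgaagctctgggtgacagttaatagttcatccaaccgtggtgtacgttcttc

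By the height of their starts the 7 genes fell into 2 patterns, with Slc34a2 between them. Starts were only moderately enriched in Slc34a1, Slc34a3 and Pdzk1, at 9.56-fold, 12.0-fold and 14.6-fold within 1 kb of the canonical TSS. Wide intervals with many summits covered most of the regions of Slc34a1 and Slc34a3. In Pdzk1, 18 intervals covered 56.7% of the region, the widest of 11615 bp and the median of 670 bp. Slc20a2 had wide intervals too, of 7884 bp and 6085 bp. Slc20a1, Slc20a2 and Xpr1 had higher starts, at 61.9-fold, 41.0-fold and 46.5-fold, and their coverage ranged from 10.3% for Xpr1 to 50.7% for Slc20a1. In each of them the strongest summit lay at the start. In Slc34a3 it also lay within 1 kb of the canonical TSS, but at -666 bp and inside Rnf224. The median fold over all summits did not separate the patterns. It was 3.54, 2.65 and 2.75 in Slc34a1, Slc34a3 and Pdzk1, and 2.55, 2.88 and 2.52 in Slc20a1, Slc20a2 and Xpr1. The start of Slc34a2 reached 17.3-fold. Among 21757 protein-coding genes the median within 1 kb of the canonical TSS was 17.0-fold with genes without a summit at 0, and 28.5-fold among genes with a summit there. Slc20a1, Slc20a2 and Xpr1 lay above both medians, Slc34a2 just above the lower and below the higher, and Slc34a1, Slc34a3 and Pdzk1 below both.

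All 7 genes had an interval within 1 kb of the canonical TSS, as did 75.8% of the protein-coding genes. A summit of at least 5-fold in that window was present in 7 of 7 genes and in 64.3% of the protein-coding genes. At shares this high in the background, neither count sets the 7 genes apart. The region was covered by intervals over at least 50% of its bases in 4 of the 7 genes (Slc34a1, Slc34a3, Slc20a1 and Pdzk1), against 21.5% of the protein-coding genes. The strongest summit of the region lay within 1 kb of the canonical TSS in Slc34a3, Slc20a1, Slc20a2 and Xpr1, thus in 4 of 7, against 56% of the protein-coding genes.

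**Figure D1:**
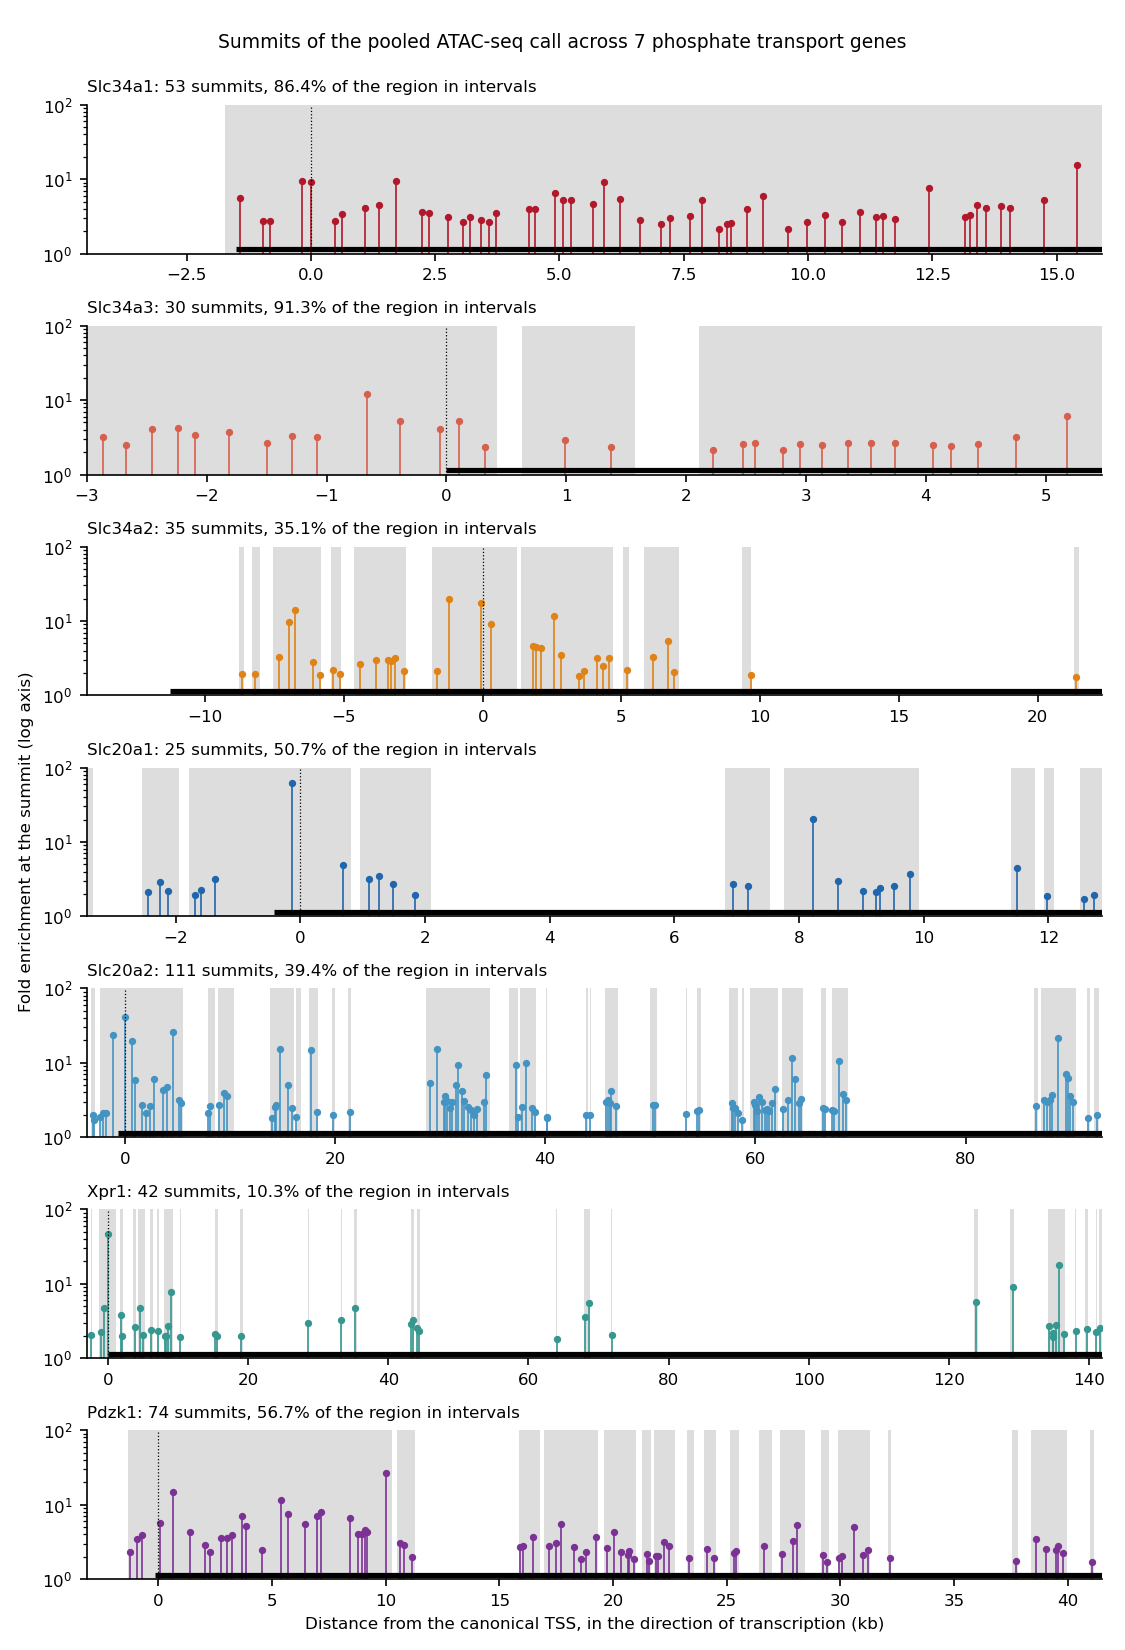
Fold enrichment at each of the 370 summits (points and stems, log axis) against distance from the canonical TSS in kb along the direction of transcription, with 1 panel per gene. Grey bands are the intervals of the pooled call within the region, the black bar is the gene and the dotted line the canonical TSS. Slc34a1 lies within a single band, whereas Slc20a1 and Xpr1 show a summit of 61.9-fold and 46.5-fold at the start and separate bands elsewhere.

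Slc34a1, the main phosphate cotransporter of the renal brush border (ENSMUSG00000021490.13, chromosome 13, 55546000 to 55563413, plus strand), lay in 1 interval. That interval ran from 55545773 to 55566658, a width of 20886 bp, and covered 100% of the gene and 86.4% of the region with its 3 kb upstream. Of all intervals of the list, 88 were as wide or wider. It held 63 summits, 53 of them in the region, with a median spacing of 312 bp and a median of 3.67-fold. No summit in it was below 2.16-fold. Summits lay in 9 of the 12 introns and in 5 of the 13 exons of the canonical transcript, so the signal was spread along the gene and not confined to its start.

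At the start of Slc34a1, a summit at -179 bp reached 9.56-fold (-log10 q 89.5) and one at -1 bp reached 9.30-fold. Inside the gene, a summit in intron 5 at 1719 bp, whose sequence is given above, reached 9.49-fold and one in intron 8 at 5906 bp reached 9.10-fold. In enrichment the start and these 2 introns were close to each other, with no replicate error to compare them by. The highest value in the region, 15.5-fold, was at 15408 bp in exon 13, in the untranslated part of the last exon. That position also lies in Pfn3, a gene for a testis profilin on the opposite strand, 131 bp inside its start, and the signal of the 2 genes cannot be separated there. The highest summit of the whole interval (16.2-fold, -log10 q 205) lay past the end of Slc34a1, in F12, the gene for coagulation factor XII. By the rule of taking the highest summit of each interval, this value would be listed for Slc34a1 although the site is 18535 bp from its TSS.

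In a comparison added after the data were seen, Slc34a1 was also set beside the 11468 protein-coding genes whose regions were at least as long. That set holds all longer regions too, so it was not matched for length. Of the 11468 genes, 154 (1.34%) were covered to the same extent or more, and the median coverage of the set was 14.7%.

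Slc34a3, the second cotransporter of the proximal brush border (ENSMUSG00000006469.14, chromosome 2, 25118910 to 25124376, minus strand), is a short gene among close neighbours, and 91.3% of its region lay in 3 intervals. In-region summits numbered 30. The highest, 12.0-fold, was at -666 bp and also inside Rnf224, the gene next to it on the same strand. In exon 1, a summit at 103 bp reached 5.30-fold, and the last exon held one of 6.15-fold at 5173 bp. Apart from these 3 summits and one of 5.24-fold at -384 bp, no summit in the region reached 5-fold, and the median was 2.65-fold.

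Both wide intervals at Slc34a3 reached far beyond the gene. The interval from 25112797 to 25122272 had its highest summit, 90.2-fold (-log10 q 2138), at -178 bp from the start of Tubb4b, a tubulin gene. The interval from 25123954 to 25134617 had its highest, 26.3-fold, near Cysrt1. Neither summit lies in the Slc34a3 region, so 12.0-fold, not 90.2-fold, is the highest value that belongs to it by position. The small interval between them reached 2.88-fold. Of 17791 protein-coding genes with a region at least as long, a set not matched for length, 483 (2.71%) were covered as much.

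Slc34a2, the intestinal and lung form (ENSMUSG00000029188.15, chromosome 5, 53195423 to 53229006, plus strand), was accessible in this kidney call. Its region held 11 intervals and 35 summits and was covered to 35.1%. The strongest interval, from 53204858 to 53207915, held a summit of 19.5-fold at -1220 bp, the one with the E-box shown above, and one of 17.3-fold at -64 bp. A further interval before the canonical TSS reached 14.1-fold at -6772 bp and one in intron 1 reached 11.6-fold at 2562 bp. Counting another of 5.30-fold in intron 1, 4 intervals were at least 5-fold. Towards the 3′ end few were called, as 2 of 12 introns and 1 of 13 exons held a summit and the exonic one was 1.77-fold. The gene's annotated span begins at another start, at -11271 bp, so these sites before the canonical TSS lie inside the gene. That start had no summit within 250 bp, and none of the 3 kb upstream of it was covered.

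Both PiT genes had their strongest summit at the start. Slc20a1, which encodes PiT-1 (ENSMUSG00000027397.16, chromosome 2, 129040256 to 129053536, plus strand) had the highest start of the 7 genes, 61.9-fold (-log10 q 1316) at -136 bp, which was above 91.3% of the protein-coding genes. The interval around it was 2602 bp wide. Within the gene a summit of 20.2-fold stood in intron 6 of the canonical transcript, at 8227 bp. RefSeq lists a second start of Slc20a1 at 8335 bp, close to that summit. Apart from this summit and the one at the start, the 23 summits of the region were all between 1.70-fold and 4.84-fold. An interval at the 3′ end, from 129053183 to 129055569, reached 25.5-fold, with that summit past the gene end. In total the region held 9 intervals and was covered to 50.7%.

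Slc20a2 (ENSMUSG00000037656.11, chromosome 8, 22966111 to 23059686, plus strand) had the most intervals, 29, and the most summits, 111. Its strongest summit, 41.0-fold (-log10 q 761), was at 33 bp in exon 1. Smim19 is transcribed from the opposite strand with its canonical start 165 bp inside Slc20a2, and the value therefore belongs to the start of either gene. The interval there was 7884 bp wide and held further summits of 26.1-fold at 4547 bp in intron 1, the one with the AP-1 match shown above, of 23.3-fold at -1095 bp and of 19.5-fold at 716 bp. The summit at -1095 bp lies inside Smim19. That at 716 bp is nearer to the Smim19 start, at -551 bp from it, than to that of Slc20a2. Away from the canonical start, summits of 10-fold or more recurred along the gene, with 15.3-fold at 14788 bp, 15.0-fold at 17715 bp and 15.1-fold at 29670 bp, all in intron 1 of the canonical transcript, then 11.6-fold in intron 3, 10.6-fold in intron 4 and 21.8-fold in intron 9. The summit at 29670 bp lies at annotated starts of shorter Slc20a2 transcripts, the nearest of them at 29658 bp. Of the 111 summits, 99 were intronic and their median was 2.88-fold.

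Xpr1, the phosphate exporter (ENSMUSG00000026469.16, chromosome 1, 155151407 to 155293181, minus strand), was the longest of the genes and the least covered, at 10.3% of its region. Its start reached 46.5-fold (-log10 q 901) at 54 bp in exon 1, in an interval of 2379 bp. Among its 26 intervals, the next was at the other end of the gene, 18.1-fold in intron 14 at 135748 bp, followed by 9.10-fold in intron 13 at 129177 bp and 7.79-fold in intron 1 at 9034 bp. A further interval reached 15.7-fold with its summit past the gene end. Summits were found in 6 of 14 introns, and 29 of the 42 were under 3-fold.

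Pdzk1, the scaffold that binds apical transporters (ENSMUSG00000038298.16, chromosome 3, 96736600 to 96778242, plus strand), had its strongest summit inside the gene. It reached 26.3-fold (-log10 q 413) at 10038 bp in intron 1, in an interval of 11615 bp that ran from 96735423 to 96747037 and held 25 summits. In the list, 610 intervals were as wide. Summits in the same interval reached 14.6-fold at 631 bp, 11.5-fold at 5417 bp and 7.99-fold at 7171 bp. At the canonical TSS itself the nearest summit, at 89 bp, was 5.70-fold. RefSeq places a start of Pdzk1 at 637 bp of the GENCODE canonical TSS, found by an exact match of its promoter sequence, and the summit of 14.6-fold is by that start. A second RefSeq start at 2743 bp had 3.54-fold within 250 bp. The remaining 17 intervals of Pdzk1 were at most 5.43-fold, and all 8 introns held a summit. In all, 18 intervals covered 56.7% of the region. Of 6183 genes with a region at least as long, a set not matched for length, 323 (5.22%) were covered as much.

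**Figure D2:**
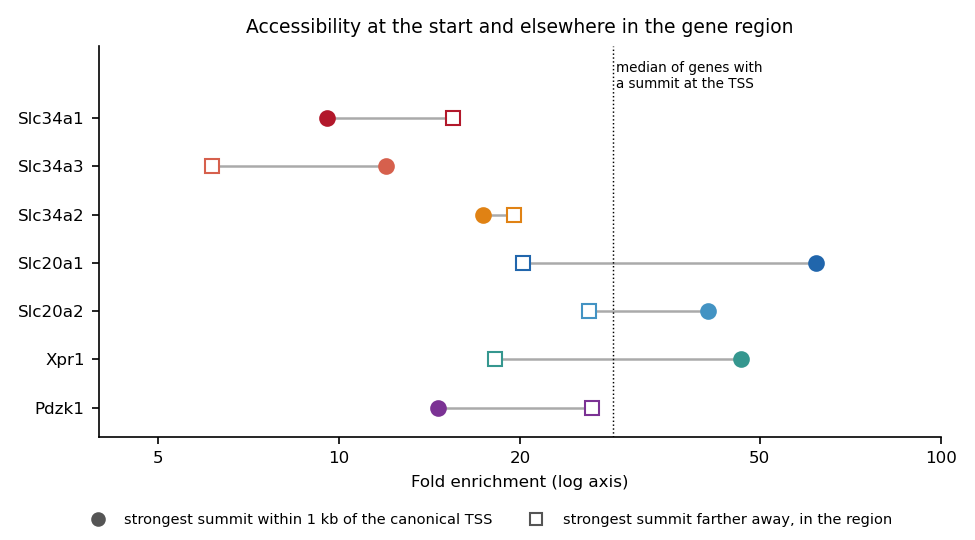
Fold enrichment (log axis) of the strongest summit within 1 kb of the canonical TSS (filled circles) and of the strongest summit elsewhere in the region (open squares) for each gene. The dotted line is the median of 28.5-fold at the starts of protein-coding genes with a summit there. Slc20a1, Slc20a2 and Xpr1 have the circle right of the line and of their square, and in Slc34a1, Slc34a2 and Pdzk1 the square is the higher of the pair.

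**Figure D3:**
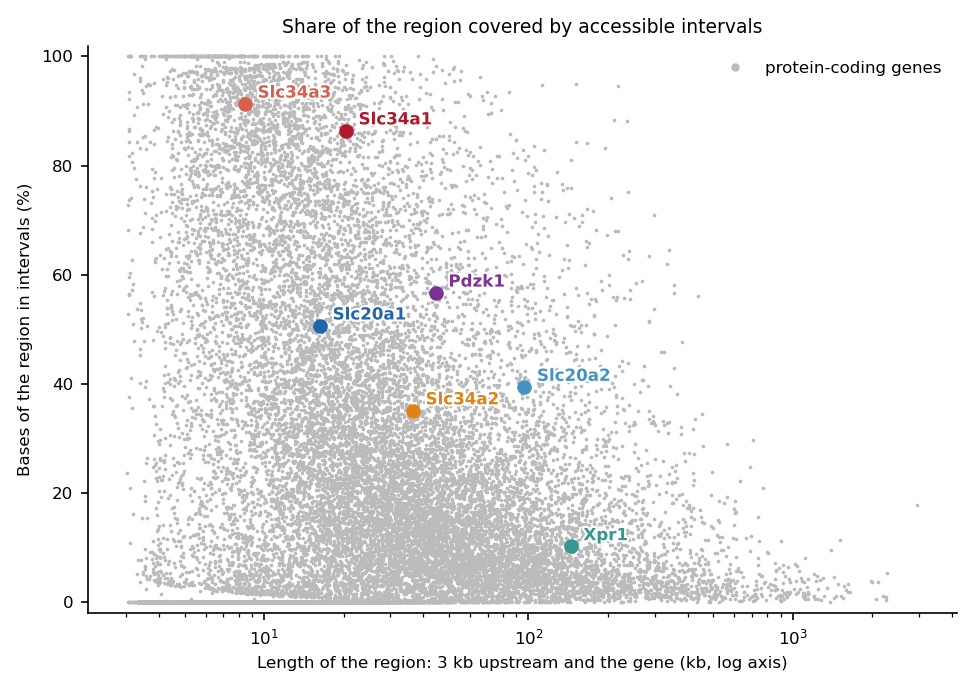
Share of the region in intervals (%) against region length (kb, log axis) for protein-coding genes (grey) and the 7 genes (coloured). Slc34a3 at 91.3% and Slc34a1 at 86.4% lie near the top for their length, and Xpr1 at 10.3% lies among the bulk of long genes.

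The promoters of the 7 genes also differed in composition, with Slc34a2 on the side of the PiT genes and Xpr1. In windows from 170 bp before the canonical TSS across the first 30 transcribed bases, the ratio of CpG dinucleotides observed to those expected from base content was 0.185 in Slc34a1, 0 in Slc34a3 and 0.146 in Pdzk1. It was 0.701 in Xpr1, 0.805 in Slc34a2, 0.903 in Slc20a1 and 0.947 in Slc20a2. The median over the 21757 protein-coding promoters was 0.529, and 44.6% of them were at 0.6 or more. GC content followed the same order of groups, from 47.5% in Slc34a1, 51.5% in Slc34a3 and 54% in Pdzk1 to 80% in Slc20a2. The division at 0.6 leaves the 3 genes with few CpG at 9.56-fold to 14.6-fold within 1 kb of the canonical TSS and the 4 with many at 17.3-fold to 61.9-fold. In Slc34a3 and Pdzk1 that summit lies outside the window whose composition was read, at -666 bp and 631 bp. Within 250 bp of the canonical TSS, Slc34a3 reached 5.30-fold and Pdzk1 5.70-fold.

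Across protein-coding genes the start was likewise stronger where CpG were frequent. The median was 36.9-fold with frequent CpG and 2.62-fold with few when genes without a summit were counted at 0, and 37.5-fold against 12.8-fold among genes with a summit. Slc34a2, at 17.3-fold, was below the median of its class. Coverage went the other way in the 7 genes than in the background. Protein-coding genes with frequent CpG were covered to a median of 27.8% and those with few to 7.52%, whereas Slc34a1, Slc34a3 and Pdzk1, with few, were covered to between 56.7% and 91.3% and the 4 genes with many to between 10.3% and 50.7%. Among the 4 genes with many, only Xpr1 was covered less than the median of its class. The lengths of the regions differed and were not taken into account here. All of this describes 7 genes chosen for their function, with no test.

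**Figure D4:**
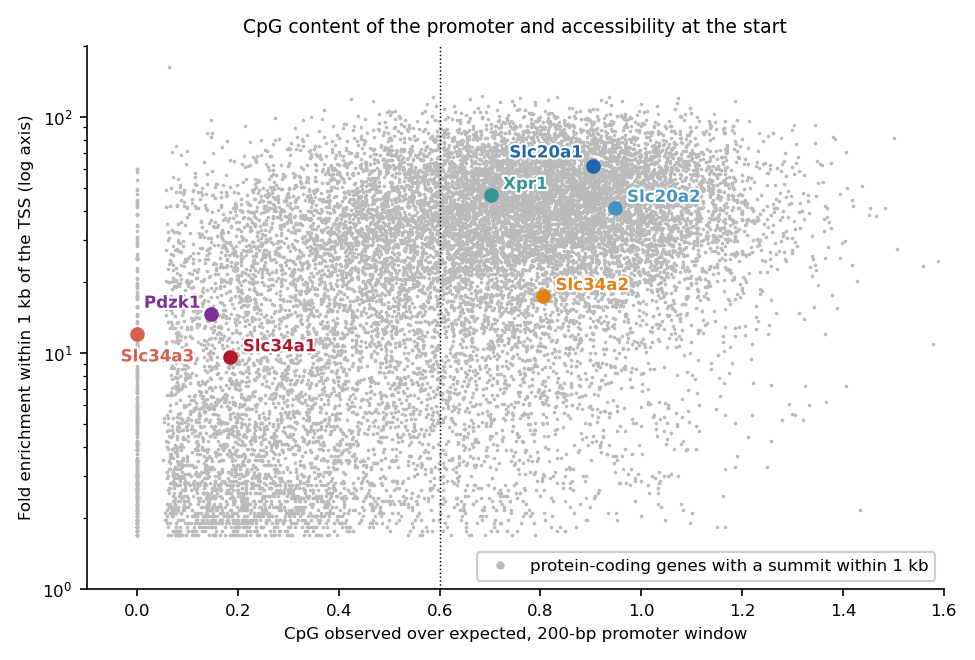
Strongest fold enrichment within 1 kb of the canonical TSS (log axis) against the CpG ratio of the promoter window for protein-coding genes with a summit there (grey) and the 7 genes (coloured). The dotted line is a ratio of 0.6. Slc34a1, Slc34a3 and Pdzk1 lie left of it, between 9.56-fold and 14.6-fold, and the other 4 genes lie right of it. The summits of Slc34a3 and Pdzk1 lie outside the promoter window.

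Short motifs were searched as exact letters on both strands. In the promoter windows, TATAAA was found in Slc34a1, with its first base at -29 bp, and in Slc20a1 at 11 bp, and 8.82% of all promoters held it. Positions are counted from the GENCODE canonical TSS. RefSeq places the start of Slc34a1 at -45 bp, so that its TATAAA lies after that start, and the start of Slc34a3 at 130 bp. The GC box GGGCGG, which 38.4% of promoters held, was found 6 times in Slc20a2, 5 times in Xpr1 and 2 times in Slc20a1. CCAAT was found in Slc34a3 at -120 bp and in Slc20a1 at -115 bp (32.1% of promoters). The E-box CACGTG was found in Slc20a1 at -163 bp and -10 bp (5.95% of promoters). The promoters of Slc34a2 and Pdzk1 held none of the motifs. Of the windows of 200 bp at the highest summits of all intervals, 12.4% held the AP-1 letters TGANTCA, as did that at the strongest summit of Pdzk1. Of the central 150 bp of these windows, the length shown above, 10.6% held the AP-1 letters, 3.08% the E-box and 6.9% the GC box. The letters of HNF1 (GTTAATNAT), HNF4 (CAAAGTCCA), a direct repeat (AGGTCAAAG), ERR (TNAAGGTCA), CRE (TGACGTCA), ETS (CCGGAAG), NRF1 (GCGCATGCG), CTCF (AGGGGGCGC) and the DR3 element of the vitamin D receptor were in none of the promoter or summit windows of the 7 genes. These letters were present in between 0.0460% of promoters, for DR3, and 8.54%, for ETS. In the 200-bp summit windows the shares ran from 0.0905%, for DR3, to 1.89%, for ETS. At shares this low, their absence does not set the 7 genes apart. The direct repeat and the ERR letters can overlap in AGGTCA. A match is a match of letters only, and no match says only that these letters are not in these windows.

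Other genes of phosphate handling were read in the same way, as a list of 24 genes. An interval within 1 kb of the canonical TSS was present in 20 of them, each with a summit of at least 5-fold, against 75.8% and 64.3% of the protein-coding genes. The median over the list was 20.9-fold with genes without a summit at 0, against 17.0-fold over the protein-coding genes. The highest starts were those of Slc25a3, the mitochondrial phosphate carrier, at 81.4-fold, of Enpp1, which makes pyrophosphate, at 46.9-fold, and of Galnt3, which glycosylates FGF23, at 42.8-fold. The 4 genes without an interval there were Fgf23 and Pth, the hormones themselves, and Phex and Dmp1, which act mainly in bone. Pth and Dmp1 had no interval in their whole region, Fgf23 had 1 and Phex had 6, the highest of them at 7.40-fold and 6.15-fold.

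The pattern of high coverage with a moderate start, seen in Slc34a1 and Slc34a3, was also seen in Pth1r, the receptor of parathyroid hormone, with 98.5% of its region covered and 10.0-fold at the start, and in Cyp27b1, which makes active vitamin D, with 97.4% and 10.8-fold. Elsewhere in its region Pth1r reached 42.8-fold. The pattern was not particular to genes of phosphate handling. Among the tubule markers read below, Slc12a3 was covered to 90.0% with 4.39-fold at the start and Slc5a2 to 58.5% with 7.40-fold. Aqp1, at 90.2% and 35.1-fold, did not show it. All these genes were picked out after their values were seen. The scaffolds Nherf1 and Ezr, at 92.9% and 95.2%, combined high coverage with strong starts of 40.8-fold and 30.5-fold. The third scaffold of the list, Nherf2, was nearer to Pdzk1, with 69.4% and 18.9-fold. The type I transporters Slc17a1 to Slc17a4 had starts between 8.58-fold and 16.8-fold and were covered to between 6.70% and 35.5%. Over the list, 9 of 24 genes were covered to at least 50%, against 21.5% of the protein-coding genes.

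**Figure D5:**
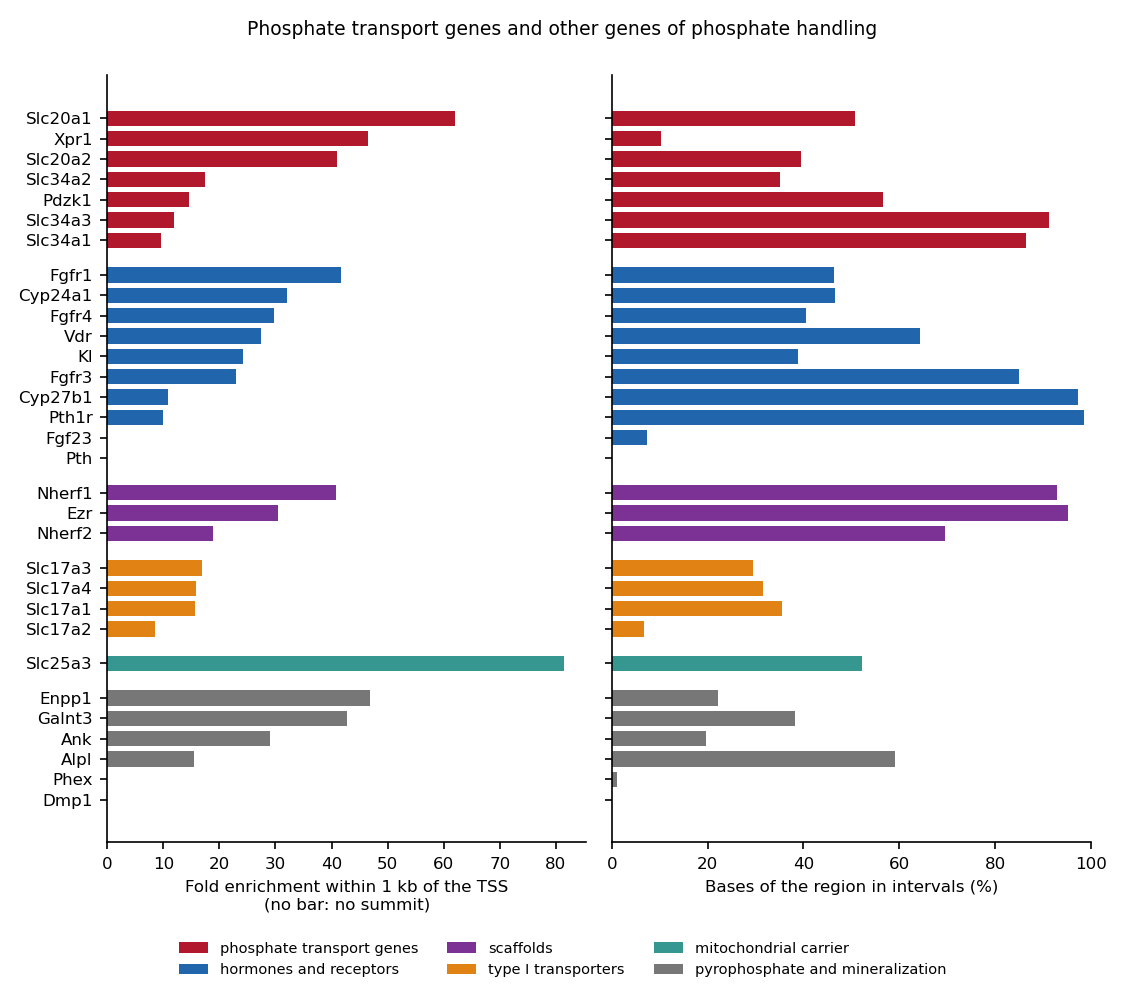
Strongest fold enrichment within 1 kb of the canonical TSS (left) and share of the region in intervals (right, %) for the 7 phosphate transport genes and 24 other genes of phosphate handling, grouped by role. Slc25a3 has the longest bar on the left, at 81.4-fold, and Pth1r on the right, at 98.5%, while Fgf23, Pth, Phex and Dmp1 have no bar on the left.

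The labelled tissue was checked by the starts of marker genes. A summit of at least 5-fold within 1 kb of the canonical TSS, which 64.3% of the protein-coding genes had, was present in 7 of 7 proximal tubule markers, with starts from 5.30-fold to 35.1-fold, in 3 of 4 markers of the thick ascending limb and distal tubule, in 2 of 4 of the collecting duct, 2 of 4 of podocytes, 1 of 4 of endothelium, 2 of 4 of stroma and 0 of 4 of immune cells. For the organs in which Slc34a2 is best known, it was present in 0 of 3 markers of lung alveolar type II cells (Sftpc, Sftpb and Lamp3, of which Sftpb reached 2.82-fold and the other 2 had no summit there) and in 1 of 3 of small intestine, Vil1, which is also a gene of the renal brush border. Markers of other organs (Ins1, Myh6, Gfap and Neurod1) gave 0 of 4. These counts concern starts only. Elsewhere in their regions Sftpb reached 14.9-fold, Gfap 16.8-fold, Neurod1 12.8-fold and Alpi, of small intestine, 8.64-fold. Sftpc, Ins1 and Myh6 stayed under 5-fold, and Lamp3 and Fabp2 had no interval. Immune markers also had summits away from their starts, with Csf1r at 27.6-fold, Ptprc at 11.9-fold and Cd3e at 6.48-fold, while Cd79a stayed at 3.93-fold. Of the endothelial markers with starts under 5-fold, Pecam1 reached 14.8-fold and Cdh5 5.89-fold elsewhere, and Emcn 4.45-fold.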

How the data were processed

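ATAC-seq libraries were grouped by genotype from their labels, as 3 WT and 3 Acly cKO libraries. Per the study's methods, the authors used fastp for trimming and Bowtie2 2.3.4.3 for alignment to mm39, dropped duplicates and reads without a unique alignment, called peaks with MACS3 3.0.0 (extension 200 bp, shift printed as 100 with no sign, q 0.05, summits called) and removed blacklisted regions with BEDTools 2.29.1. The peak list was deposited as 1 pooled call. It gives the fold enrichment of each summit, a linear ratio computed by the authors, the -log10 q of each summit as written by the authors' caller, and the offset of the summit. Each fold value that recurs in the list has a single q. With fold and q paired in this way, choosing summits by fold instead of q had little room to differ. It left the value of the strongest interval of each gene unchanged. The deposited list of unfiltered summits held all 370 summits of the 7 genes at the same positions. Depth is unknown.

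Rows sharing chromosome, start and end made 1 interval, which took the values of the summit with the best q. The build was GRCm39 with GENCODE M39, and positions are counted from 1. The TSS is that of the transcript tagged canonical by Ensembl, and strongest in the region means among summits inside it. Sequences were read from the GRCm39 assembly, and RefSeq starts were placed by an exact match of their promoters. The protein sequences planned were not analysed here.

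The genes are defined by their role, with no measured value in the rule, but they, the gene lists, motifs, markers and alternatives were chosen with earlier results of these data known. For each gene, the strongest interval, that at the canonical TSS and up to 3 further intervals of highest fold were described, with further intervals of Slc20a2 and Xpr1 added after their values were seen. Of the 24 other phosphate genes, the 3 with the highest starts and those with no interval there were named. No test was made, since no value belongs to a library. The scripts, in Python 3.11.15 with numpy 2.4.6 and pandas 2.3.3, were tested on simulated data and recovered the intervals, summits, coverage and strongest summit of 500 of 500 genes with known answers and 1400 of 1400 planted motifs.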

Additional observations from a re-analysis of the deposited data

How the results depend on the processing

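Of 39 alternatives computed, 33 left the value within the limits used. Some of the 33 had little or no room to move. These were the choice of summits by fold, which is paired with q, and the merging of intervals that were already separate. The 97 intervals became 62 with q under 1e-05, 30 with a fold enrichment of at least 5 and 370 when summits were counted instead, since 1 interval can hold many. Other rules gave between 91 and 129. All 7 genes kept an interval within 1 kb of the canonical TSS under each of the 4 alternatives to it. Of these alternatives, allowing any annotated start could not lose a gene. The strongest interval of Slc34a1 moved from 16.2-fold to 30.3-fold with 10 kb on either side. With only summits inside the region, an alternative added after the data were seen, it became 15.5-fold, and that of Slc34a3 moved from 90.2-fold to 12.0-fold. The rule of 1 value per interval therefore gives Slc34a3 a value of a neighbouring start. No paired analysis was possible because the deposited call is pooled and no column carries a library or a replicate number. Likewise no replicate could be left out. The depth behind the pooled call is unknown. No summit of the list was below 1.70-fold, where the caller's -log10 q was 1.37. All 1328 fold values that recur in the list had a single q each. A site that was not called therefore lay under about 1.70-fold in the pool, unless a filter removed it. How open such a site was in a single library cannot be said.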
